A study of Mus musculus with 8 samples.

Results

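Arachidonic acid can leave the cyclooxygenase route for the lipoxygenase, leukotriene and epoxide routes, and the genes of those routes are described here in skeletal cells sorted from mouse fracture callus. They are the phospholipase A2 genes, Plaa, the lipoxygenases, the enzymes of leukotriene synthesis with their microsomal glutathione transferase relatives, the leukotriene and lipoxin receptors, and the epoxide hydrolases. They were chosen by gene symbol alone, as probe sets whose platform annotation names 1 of these genes and no other. This gave 59 probe sets of 41 genes, among 45037 probe sets and 18193 named genes on the arrays. Of 46 genes listed for these roles, Pla2g4b, Pla2g16, Ltb4r2, Fpr1 and Fpr3 had no probe set under that symbol alone. The probe set of Pla2g4b is annotated to a second gene as well, and Pla2g16 is annotated under its newer symbol Plaat3, which is given with the reacylation genes below.

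The arrays compared SSCs, the skeletal stem cells at the top of the lineage (4 arrays), with BCSPs, the bone, cartilage and stroma progenitors that descend from them (4 arrays). SSCs were sorted as CD45-, Ter119-, Tie2-, Thy1-, 6C3-, CD51+, CD105- and CD200+, and BCSPs by the same gate with CD105+ in place of CD105- and CD200+. Both came from pinned bicortical femoral fractures of male C57/Bl6 mice (C57BL6/J in the study's methods) aged 10 to 12 weeks with no drug treatment named, and each of experiments 1 to 4 gave 1 array of each population from 10000 sorted cells. The sample labels place the harvest on day 7 after fracture. The main text places it on day 10. Since these are bulk samples of sorted cells, fewer cells of a type and less RNA per cell cannot be told apart. A figure legend of the study names 4 mice for these arrays, but the labels tie no array to an animal and do not say whether animals were pooled, so p-values measure the spread between these arrays.

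Phospholipases A2 cut fatty acids, among them arachidonic acid, from membrane phospholipids. Alox5, helped by its membrane partner Alox5ap, turns free arachidonic acid into leukotriene A4. Lta4h then makes leukotriene B4 from it, while Ltc4s and Mgst2 join it to glutathione to give the cysteinyl leukotrienes. Leukotrienes are best known as products of neutrophils, macrophages, mast cells and eosinophils, where they attract and activate other leukocytes. The other lipoxygenases make hydroxy fatty acids, cytochrome P450 enzymes make epoxides, and the epoxide hydrolases open those epoxides.

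Each value is an activity score, which runs from about -100 (inactive) to 100 (active) and sets a probe set's signal within the range that this probe set spans in many public mouse arrays. A score above 0 lies past the threshold that the platform set for that probe set and is called active here. The score is no log or fold value, it flattens near both ends, and it does not rank amounts of mRNA between genes. Between 29% and 31% of all probe sets were active on each array. All 12 measured genes of the skeletal and cartilage list were active on all 8 arrays. Among the sort markers Itgav (CD51) and Cd200 were active on all 8 and Eng (CD105) on 2, both of them BCSP arrays. The 95th percentile of 58 probe sets of 41 genes that skeletal cells should lack lay between -19.6 and 3.11 on the 8 arrays.

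Of the 41 genes, 3 scored above 0 on every array, 6 on 1 to 7 arrays and 32 nowhere, each gene taken at whichever of its probe sets averaged highest. The 3 were Pla2g4a, Plaa and Lta4h. Plaa was the least secure of them, since on the BCSP array of experiment 1 it scored 2.08, under the 3.11 that the 95th percentile of the silent genes reached there. With that percentile as the threshold on each array the 3 were Pla2g4a, Lta4h and Pla2g12a, and with arrays centred on their medians only Pla2g4a and Lta4h stayed above 0 on all 8. Over all named genes 25% were active on all 8 arrays. Counted as probe sets, 3 of 59 were above 0 on all 8 arrays, against a background of 16.1% of all probe sets, and 46 of 59 (78%) were below 0 on all 8, against 49.5% of all probe sets. The median score over the 59 probe sets was -51.5, against -31.1 over all probe sets. The release step and the leukotriene B4 step thus each held an active gene. The step between them, at Alox5 and Alox5ap, scored below 0 on every array in both populations. Alox5 and Alox5ap were each read by only 1 probe set, and probe sets of the same gene did not always agree, as for Lta4h and Plaa below.

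The start regions of the 3 genes active on all 8 arrays and of Alox5 are printed to set the genes above 0 on all 8 arrays beside the first enzyme of the leukotriene route, which was below 0 on all 8. Each is the 250 bases before an annotated transcription start, taken from RefSeq on build GRCm38.p6 and read 5′ to 3′ on the gene's strand, with every CG pair in capitals. Pla2g4a has a pair of annotated starts.
Pla2g4a, chr1:149961291-149961540, minus strand: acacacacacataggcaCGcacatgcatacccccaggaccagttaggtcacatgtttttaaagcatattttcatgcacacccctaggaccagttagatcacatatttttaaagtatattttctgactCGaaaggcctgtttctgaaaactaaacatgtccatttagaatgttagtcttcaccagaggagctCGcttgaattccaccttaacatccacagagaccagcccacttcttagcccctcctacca
Pla2g4a, chr1:149922440-149922689, minus strand: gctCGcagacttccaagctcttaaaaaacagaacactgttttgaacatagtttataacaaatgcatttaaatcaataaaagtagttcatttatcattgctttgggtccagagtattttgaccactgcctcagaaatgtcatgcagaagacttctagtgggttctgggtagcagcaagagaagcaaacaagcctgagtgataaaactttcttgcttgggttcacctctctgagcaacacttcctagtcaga
Plaa, chr4:94603248-94603497, minus strand: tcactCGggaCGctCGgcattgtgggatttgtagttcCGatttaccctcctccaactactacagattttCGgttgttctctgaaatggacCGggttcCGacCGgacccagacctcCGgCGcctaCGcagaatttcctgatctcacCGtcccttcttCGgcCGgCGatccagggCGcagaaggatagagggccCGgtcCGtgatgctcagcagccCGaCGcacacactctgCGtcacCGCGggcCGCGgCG
Lta4h, chr10:93453146-93453395, plus strand: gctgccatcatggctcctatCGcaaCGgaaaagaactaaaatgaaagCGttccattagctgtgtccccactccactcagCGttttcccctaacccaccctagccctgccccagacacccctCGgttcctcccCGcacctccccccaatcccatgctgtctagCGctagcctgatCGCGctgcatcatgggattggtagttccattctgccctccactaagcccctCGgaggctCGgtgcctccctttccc
Alox5, chr6:116461179-116461428, minus strand: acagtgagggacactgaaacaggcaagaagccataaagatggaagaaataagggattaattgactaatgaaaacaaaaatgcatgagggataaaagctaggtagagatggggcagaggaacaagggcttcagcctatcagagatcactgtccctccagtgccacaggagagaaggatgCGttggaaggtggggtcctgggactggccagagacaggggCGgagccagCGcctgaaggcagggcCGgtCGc
The active genes did not share one kind of start region. Plaa held 26 CG pairs and Lta4h held 11, but the Pla2g4a windows held 3 and 1, and Alox5 held 5. The ratio of CG pairs to the number expected from the C and G content was 1.12 for Plaa, 0.592 for Lta4h, 0.285 and 0.102 for Pla2g4a and 0.316 for Alox5, against a median of 0.374 over all 32851 windows.

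Windows were found for 34 of the 41 genes, 39 in all, and were searched on both strands for the letters of 4 promoter motifs, counted without regard to any overlap between them. The GC box, spelled GGGCGG, stood in 15 of 39 windows (38.5%), against 32.7% of all windows, and in 0 of the 4 windows of the 3 active genes. The TATA box, spelled TATAAA, stood in 5 of 39 (12.8%), against 12.4% of all, and the letters CCAAT in 14 of 39 (35.9%), against 33.8% of all. The AP-1 motif, spelled TGANTCA, stood in 2 of 39 (5.13%), against 6.75% of all. Lta4h held the CCAAT letters at 2 places, Alox5 held 1 GC box, and the window of Pla2g4a at its second printed start held the TATA letters. These matches describe letters only.

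**Figure D1:**
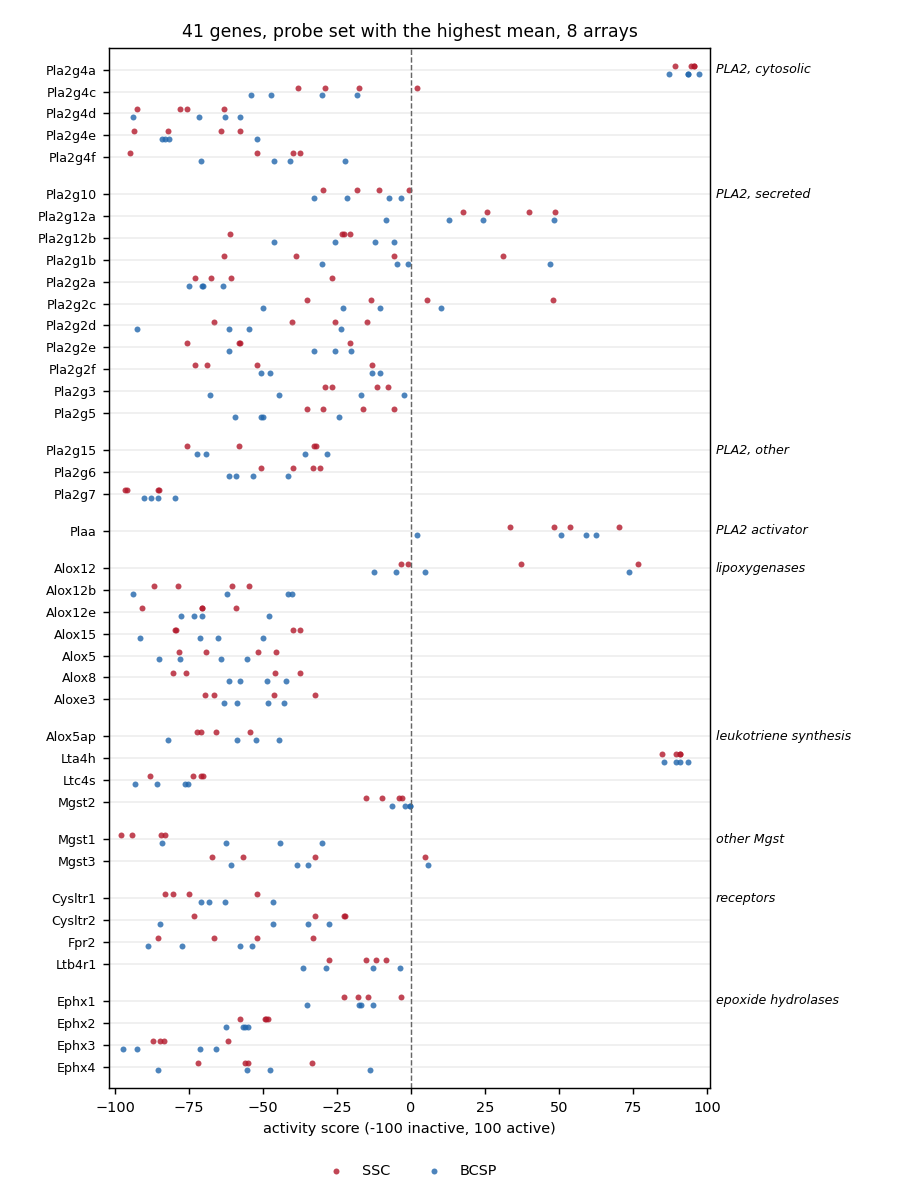
Activity score (x axis, no unit, 0 is the platform's threshold) of 41 genes in rows grouped by role, each at its probe set with the highest mean, with 4 SSC arrays (red, upper points) and 4 BCSP arrays (blue, lower points). Pla2g4a and Lta4h lie between 84.8 and 97.2 on all 8 arrays and Plaa lies above 0 on all 8, while 32 genes lie below 0 on all 8.

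Pla2g4a, the cytosolic phospholipase A2 that prefers phospholipids carrying arachidonic acid, scored 89.4, 94.7, 95.7 and 95.7 on the SSC arrays of experiments 1 to 4, against 87.3, 93.8, 93.8 and 97.2 on the BCSP arrays. All 8 scores lay near the upper end of the scale and the groups overlapped. The means were 93.9 ± 3.01 in SSCs and 93.0 ± 4.14 in BCSPs (SD, n = 4 each), a difference of 0.845 points with a 95% confidence interval from -5.39 to 7.08 (limma, adjusted p = 1). Because the score flattens there, a difference in amount at the top of the range may not show in it. The other cytosolic enzymes measured, Pla2g4c, Pla2g4d, Pla2g4e and Pla2g4f, were below 0 on all arrays but 1, the SSC array of experiment 2, on which Pla2g4c scored 2.19.

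Of the secreted phospholipases A2, 0 of 11 were active on all 8 arrays, 3 were active on 1 to 7 and 8 on none. Pla2g12a, an atypical secreted form, came nearest. It scored 48.7, 39.8, 25.9 and 17.4 in SSCs, against 24.4, 48.3, -8.44 and 12.8 in BCSPs. It was thus active on 7 of 8 arrays with overlapping groups, and was chosen for mention after its values were seen. Pla2g2c was above 0 on 3 arrays and the pancreatic enzyme gene Pla2g1b on 2, the highest scores being 48.1 for Pla2g2c in SSCs and 46.9 for Pla2g1b in BCSPs. The other Pla2g1b probe sets were below 0 on all 8 arrays. Pla2g2a, which RefSeq lists as a pseudogene and which is disrupted in this strain, scored between -73.1 and -26.6 in SSCs and between -75.0 and -63.4 in BCSPs.

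Pla2g5, a secreted enzyme that acts on phosphatidylcholine, scored -5.86, -29.9, -16.3 and -35.3 in SSCs, against -24.2, -50.8, -50.1 and -59.6 in BCSPs. SSCs scored higher in 4 of 4 experiments, but all 8 scores were below 0 and the groups overlapped. The difference was 24.3 points (SE 12.7, 95% confidence interval -4.17 to 52.8, limma adjusted p = 1). The calcium-independent enzyme Pla2g6 at its highest probe set scored -33.2, -39.9, -50.6 and -30.8 in SSCs, against -59.3, -61.5, -53.3 and -41.6 in BCSPs. Its difference was 15.3 points (SE 9.76, 95% confidence interval -6.64 to 37.3, adjusted p = 1), again with every score below 0. Its other probe sets differed by 2.27 and -1.96 points. The lysosomal enzyme Pla2g15 and Pla2g7, which breaks down platelet-activating factor, were below 0 on all 8 arrays, Pla2g7 between -96.8 and -85.3 in SSCs and between -90.1 and -79.7 in BCSPs.

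Plaa, named as a phospholipase A2 activating protein and known as a ubiquitin-binding partner of Vcp, had 4 probe sets that did not agree. The one with the highest mean scored 48.4, 33.4, 70.4 and 53.8 in SSCs, against 2.08, 59.3, 62.7 and 50.8 in BCSPs. It was active on all 8 arrays, with the BCSP array of experiment 1 far below the rest of its group, and the difference was 7.82 points (95% confidence interval -24.1 to 39.7, adjusted p = 1). Without that array the difference was -6.05 points. A second Plaa probe set scored -19.5, -23.2, -55.4 and -79.4 in SSCs, against 11.8, -12.3, 35.3 and -29.8 in BCSPs. It ran the other way from the first, with SSCs below BCSPs in all 4 experiments and a mean difference of -45.65 points (SE 19.4, 95% confidence interval -89.3 to -1.98, limma unadjusted p = 0.0422, adjusted p = 1). Another was also lower in SSCs in 4 of 4 experiments and is given with the experiments below, and the last was below 0 on all 8 arrays. The score thus gave no single level or direction for Plaa.

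Of the 7 lipoxygenases, 0 were active on all 8 arrays, Alox12 on 4 and the other 6 on none. Alox5, which starts leukotriene synthesis, scored -51.5, -45.5, -78.6 and -69.3 in SSCs, against -55.5, -85.0, -78.2 and -64.3 in BCSPs. The groups overlapped, and the difference was 9.53 points (95% confidence interval -13.5 to 32.6, adjusted p = 1). Alox15, known from macrophages, and Alox8, Alox12b, Alox12e and Aloxe3, known mainly from skin, lay between -91.0 and -32.6 in SSCs and between -94.1 and -40.1 in BCSPs. Alox12, the platelet-type enzyme, is described with the experiments.

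Alox5ap scored -72.4, -70.9, -65.8 and -54.5 in SSCs, against -82.0, -44.5, -52.2 and -58.8 in BCSPs. Ltc4s, the dedicated synthase of leukotriene C4, scored -70.8, -70.2, -88.2 and -73.7 in SSCs, against -76.5, -86.0, -93.3 and -75.2 in BCSPs. Both stayed far below the threshold with overlapping groups, although in all 4 experiments Ltc4s was higher in SSCs, with a mean difference of 7.0 points (95% confidence interval -8.60 to 22.6, adjusted p = 1). Mgst2, which can take the place of Ltc4s, lay close under the threshold, between -15.2 and -2.93 in SSCs and between -6.50 and -0.23 in BCSPs.

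Lta4h, which also acts as an aminopeptidase, was the active gene of leukotriene synthesis. Its highest probe set scored 84.8, 90.8, 89.7 and 91.0 in SSCs, against 85.5, 93.5, 89.6 and 91.0 in BCSPs. The populations were close in each experiment, and the difference was -0.795 points (95% confidence interval -6.93 to 5.34, adjusted p = 1). A second probe set scored -10.1, 44.0, -2.93 and -19.1 in SSCs, against -58.7, -20.6, -64.2 and -27.1 in BCSPs. Here every SSC score lay above every BCSP score, by 45.6 points on average (SE 18.0, 95% confidence interval 5.05 to 86.2, limma unadjusted p = 0.0314, adjusted p = 1). The remaining one scored -57.9, -6.05, -1.83 and -28.5 in SSCs, against -96.0, -8.22, -0.79 and 33.4 in BCSPs, with no common direction. The separation of the populations at the second probe set therefore stood at neither of the other Lta4h probe sets.

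**Figure D2:**
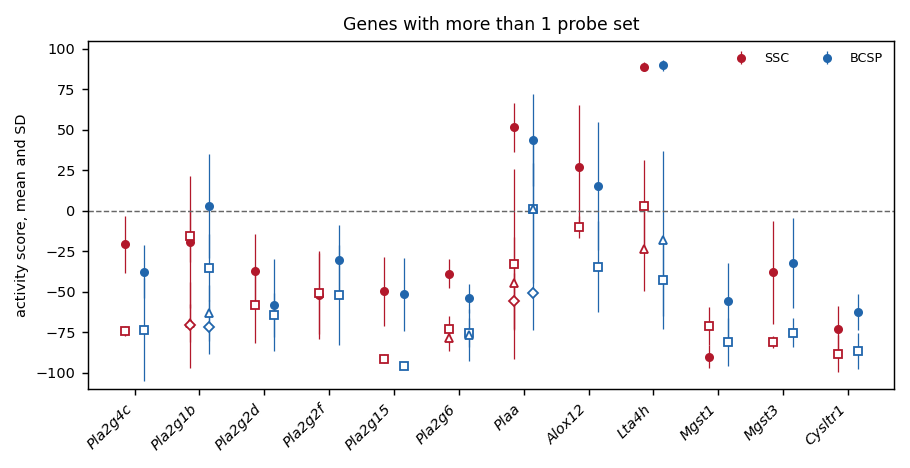
Mean activity score with SD (y axis) of each probe set of the 12 genes that have more than 1, in SSCs (red, left) and BCSPs (blue, right, n = 4 arrays each), with filled circles for the first probe set listed and open symbols for the others. Lta4h has 1 probe set at 89.1 in SSCs and 89.9 in BCSPs and a pair far lower, and Plaa has 1 at 51.5 in SSCs and 43.7 in BCSPs and the others near or below 0.

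Of the related glutathione transferases, Mgst1, a detoxifying enzyme, scored -94.1, -83.2, -98.0 and -84.4 at its highest probe set in SSCs, against -62.6, -44.3, -30 and -84.2 in BCSPs. SSCs were lower in 4 of 4 experiments, by only a fraction of a point in experiment 4, and the difference was -34.6 points (SE 11.3, 95% confidence interval -60.1 to -9.18, limma unadjusted p = 0.013, adjusted p = 1). Its other probe set differed by 10.1 points in the opposite direction, with a confidence interval from -10.5 to 30.7. All Mgst1 scores were below 0, so the difference lay wholly in the inactive part of the range. Mgst3 was above 0 on 2 arrays at its highest probe set, at 4.79 in SSCs and 5.73 in BCSPs. Its other probe set lay between -85.3 and -76.7 in SSCs and between -86.4 and -65.1 in BCSPs.

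None of the 4 receptor genes measured was active on any array. Ltb4r1, the high-affinity receptor for leukotriene B4, scored -8.52, -15.1, -27.8 and -11.7 in SSCs, against -3.60, -36.4, -28.8 and -13.0 in BCSPs. Cysltr1, a receptor for cysteinyl leukotrienes, scored -52.2, -80.4, -83.2 and -74.9 in SSCs, against -71.1, -46.5, -62.7 and -68.4 in BCSPs at its highest probe set. Fpr2, a formyl peptide receptor that also binds lipoxin A4, scored -33.1, -66.5, -51.9 and -85.4 in SSCs, against -89.0, -53.7, -57.7 and -77.5 in BCSPs. The groups of these 3 receptors overlapped, with differences of 4.64, -10.5 and 10.2 points whose confidence intervals all included 0 (limma, adjusted p = 1).

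The 4 epoxide hydrolases were below 0 on all 8 arrays. Ephx1, the microsomal enzyme, scored -22.6, -3.41, -18.0 and -14.5 in SSCs, against -17.0, -12.8, -35.0 and -17.6 in BCSPs. Ephx2, the soluble enzyme that turns epoxides of arachidonic acid into diols, scored -48.5, -49.5, -57.7 and -48.9 in SSCs, against -56.8, -54.9, -56.0 and -62.7 in BCSPs. It was the steadier of the pair, and the differences were 5.97 points for Ephx1 (95% confidence interval -21.6 to 33.5) and 6.45 points for Ephx2 (95% confidence interval -11.1 to 24.0), both with an adjusted p of 1 (limma). Ephx3 and Ephx4 lay between -87.2 and -33.3 in SSCs and between -97.3 and -14.0 in BCSPs.

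The leukocytes best known for leukotrienes were looked for by their markers. Both populations were sorted as CD45-, a gate against leukocytes, so low scores of these markers are no independent observation. Ptprc (CD45) lay between -56.6 and -31.2 in SSCs and between -41.6 and -34.9 in BCSPs at its highest probe set. In the macrophage and monocyte list 12 of 13 genes measured were below 0 on every array, the exception being Laptm5, above 0 on the SSC arrays of experiments 2, 3 and 4 at 1 of its probe sets. The median over that list's genes, each at its probe set with the highest mean, ran from -71.8 to -67.6 over SSC arrays. Over BCSP arrays it ran from -79.3 to -54.9, and medians of the other marker lists were taken the same way. In the neutrophil list 9 of 9 genes were below 0 on every array, with a median from -59.5 to -50.2 over SSC arrays and from -78.3 to -44.8 over BCSP arrays. In the mast cell and eosinophil list this held for 10 of 11, the exception being Tpsb2 on the SSC array of experiment 1, and the median ran from -68.5 to -55.0 over SSC arrays and from -77.3 to -50.6 over BCSP arrays. Adgre1, Csf1r, S100a8 and Cpa3, picked from these lists, were below 0 on all 8 arrays. So were Alox5, Alox5ap and Ltc4s, and 49.5% of all probe sets. A link between these markers and the leukotriene genes was not tested.

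Set side by side, the neighbouring steps of arachidonic acid handling differed in how many genes were active on all 8 arrays. These lists are background to the 41 genes, and no list was tested as a set. For the cyclooxygenase route 4 of 9 genes measured were active, Ptgs2, Ptgis, Prxl2b and Hpgd. The list for this route did not include Ptgs1, the other cyclooxygenase, so its count does not cover the whole route. Ptgs2, the inducible cyclooxygenase, scored between 92.3 and 93.4 in SSCs and between 92.9 and 95.4 in BCSPs. Among the genes that activate, reacylate or otherwise release the fatty acid 9 of 24 were active. They included Mboat2, a lysophospholipid acyltransferase, at 97.8 to 99.1 over the 8 arrays, Acsl4, an acyl-CoA synthetase that prefers arachidonic acid, at 15.2 to 45.8, and Plaat3, an adipose phospholipase, at 37.6 to 83.4.

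Of the partners and regulators of phospholipase A2, 6 of 9 were active, among them Anxa1, annexin A1, at 36.5 to 39.6 in SSCs and 35.5 to 42.6 in BCSPs. Of the cytochrome P450 list 1 of 22 was active, the epoxygenase gene Cyp2j6, at 5.81 to 41.4 in SSCs and 12.9 to 49.7 in BCSPs. Of the genes of leukotriene breakdown and export 1 of 6 was active, the exporter Abcc1, at 17.6 to 45.3 in SSCs and 5.39 to 41.5 in BCSPs, although its other probe set lay between -98.0 and -75.6 over the 8 arrays. Of the other lipid mediator receptors 2 of 8 were active, Cmklr1, the chemerin receptor, and Ffar4, a receptor for long-chain fatty acids, at 67.7 to 87.7 in SSCs and 60.3 to 85.7 in BCSPs. Each of these counts stands beside the 25% of all named genes that were active on all 8 arrays, and no difference between lists was tested.

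**Figure D3:**
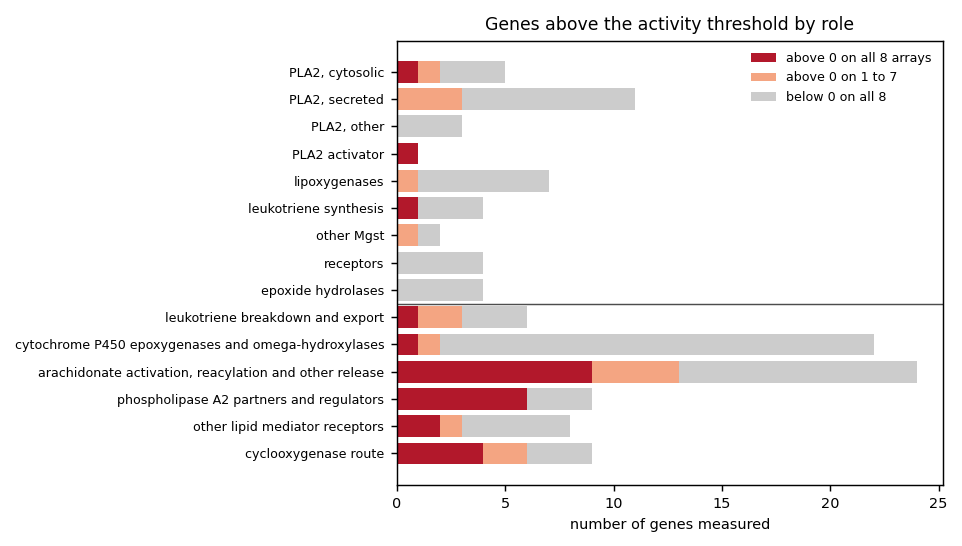
Number of genes measured (x axis) in each role of the 41 genes (above the line) and each neighbouring list (below it), split into those above 0 on all 8 arrays (dark red), on 1 to 7 (light red) and on none (grey), each gene at its probe set with the highest mean. The receptors and epoxide hydrolases show 0 genes above the threshold, the P450 list 1 of 22 on all 8 arrays and the partners of phospholipase A2 6 of 9.

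Between SSCs and BCSPs, 0 of 59 probe sets passed an adjusted p of 0.05 (limma over all probe sets), and the background was 0% of all 45037. Eng (CD105), on which the gate separated the populations, did not pass either. Yet both its probe sets were lower in SSCs without overlap, by -58.4 and -41.6 points, SSC minus BCSP. A count of 0 therefore does not mean that the populations were alike. At an unadjusted p under 0.05 there were 3 of 59 (5.08%), against 2.4% of all probe sets. These were the second Lta4h probe set, higher in SSCs, and a Plaa and the highest Mgst1 probe set, lower in SSCs. The scores of the populations did not overlap at 1 of 59 probe sets (1.69%), the second of Lta4h, against 1.43% of all. SSCs were higher in 4 of 4 experiments at 10 of 59 probe sets (16.9%), against 5.43% of all, and lower in 4 of 4 at 5 of 59 (8.47%), against 7.24% of all.

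The 10 higher probe sets belonged to Pla2g4c, Pla2g1b, Pla2g5, Pla2g15, Pla2g6, Alox12 (both of its probe sets), Lta4h, Ltc4s and Cysltr2. All 10 were below 0 in BCSPs on every array but for Alox12, and the same genes' other probe sets, where they had any, did not share the direction in 4 of 4 experiments, Alox12 apart. The 5 lower ones belonged to Pla2g2f, Plaa (a pair), Mgst2 and Mgst1. The median difference over the 59 probe sets was 1.02 points, against -0.605 over all probe sets, with a median standard error of 13.1 points. By experiment that median was 5.30, 2.17, 1.69 and 0.21 points in experiments 1 to 4, against 0.84, -1.20, -0.86 and -1.30 over all probe sets. The same mRNA may be read by several probe sets, so the counts are not of independent genes.

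Markers of endothelial cells were set beside these differences after all marker lists had been compared. Their median difference of -12.9 points was the largest in size of these lists, and 7 of 9 probe sets averaged lower in SSCs. At an unadjusted p under 0.05 there were 3 of 9, all lower in SSCs, against 2.4% of all probe sets. Robo4 differed by -39.5 points and 1 probe set of Cdh5 by -45.8 points, both without overlap between the populations, and Emcn by -32.6 points (limma, adjusted p = 1 for each). The other Cdh5 probe set ran the opposite way, by 28.6 points, and Pecam1 differed by 3.36 points. All 8 genes of the list were below 0 on all 8 arrays, among them Tek (Tie2), which the gate sorted against. The list's median ran from -82.6 to -76.7 over SSC arrays and from -80.2 to -46.4 over BCSP arrays. Its probe sets without overlap were 2 of 9, against 1.43% of all. Other lists held such probe sets too, 3 of 11 in the keratinocyte list. Ngp (neutrophil), Cma1 (mast cell) and 1 probe set of Slc4a1 (erythroid) were higher in SSCs without overlap, by 17.1, 18.2 and 21.5 points. The other Slc4a1 probe sets ran the opposite way. The part of these lists in the differences of Mgst1, Plaa and Lta4h was not tested.

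With the experiment as a block, which pairs the arrays of each experiment, 5 of 59 probe sets had an unadjusted p under 0.05 (8.47%, against 5.04% of all) and 0 passed after adjustment (smallest adjusted p = 0.933). Pla2g5 (limma with the block, unadjusted p = 0.0418) and the Plaa probe set that was high in experiment 3 (unadjusted p = 0.0364) were added to the earlier 3.

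**Figure D4:**
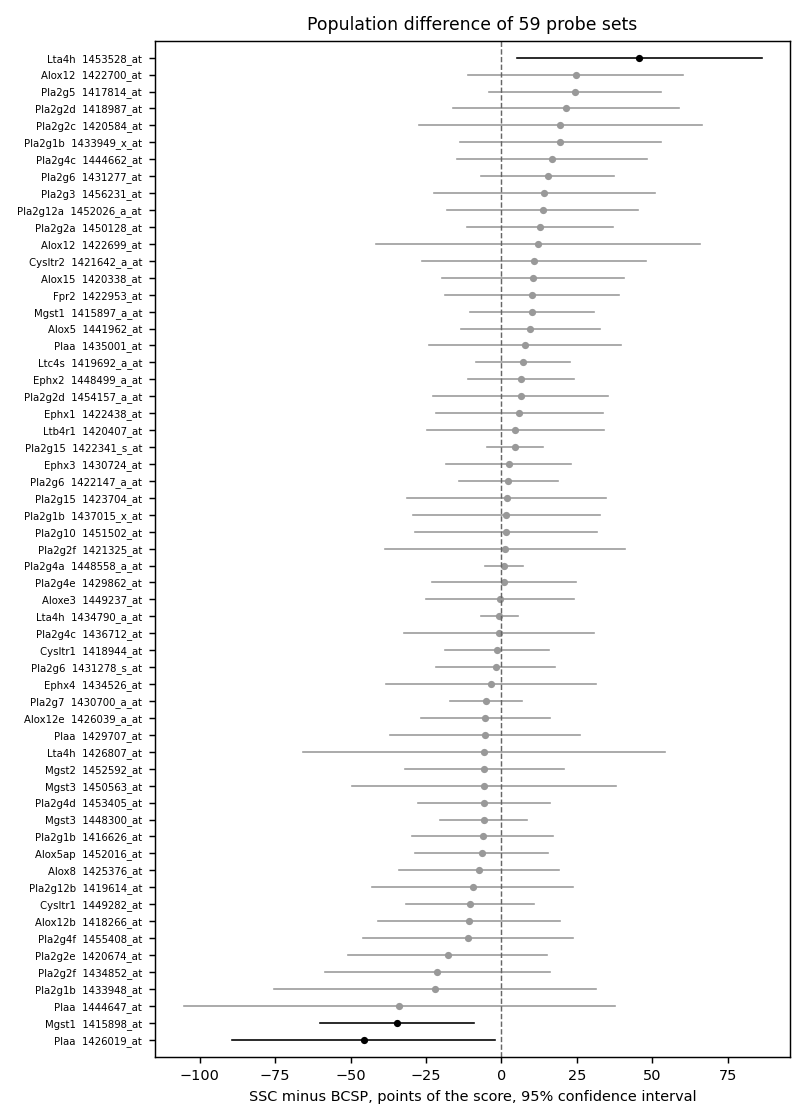
Difference in activity score, SSC minus BCSP (x axis, points), with its 95% confidence interval for each of the 59 probe sets, in order of size, with black for an unadjusted p under 0.05 and grey for the rest. The 3 black intervals are those of Lta4h at the top (45.6 points) and of Mgst1 and Plaa at the bottom (-34.6 and -45.7 points), and the intervals of Pla2g4a and of the highest Lta4h probe set are short and lie across 0.

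The same probe sets were compared between experiments. Here 0 of 59 probe sets passed an adjusted p of 0.05 (limma F test with the population in the model), against 0.995% of all probe sets, and 7 of 59 (11.9%) had an unadjusted p under 0.05, against 24.9% of all. Alox12 had the smallest p, at -3.41, 37.1, -1.0 and 76.8 in SSCs of experiments 1 to 4, against -12.4, 4.62, -4.99 and 73.7 in BCSPs (limma F test, unadjusted p = 0.00168, adjusted p = 0.0623). Both arrays of experiment 4 were high and both of experiments 1 and 3 lay just under 0. The other Alox12 probe set was below 0 on all 8 arrays, at -2.14 in SSCs and -3.86 in BCSPs of experiment 4.

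Alox12 is known from platelets, and their markers were set beside it. In the platelet and megakaryocyte list 4 of 5 genes were below 0 on every array and 0 were above it on all 8. The median over its genes, each at its highest probe set, ran from -77.0 to -63.3 over SSC arrays and from -82.3 to -52.1 over BCSP arrays. Pf4, which defines platelets, was between -93.0 and -79.4 in SSCs and between -92.6 and -68.3 in BCSPs. Itgb3, an integrin subunit of platelets and osteoclasts, scored 44.98 in SSCs and 29.0 in BCSPs of experiment 4 at its highest probe set, and between -8.00 and 5.15 in SSCs and between -9.04 and -0.24 in BCSPs of the others. Its part in the Alox12 result was not tested.

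A further Plaa probe set scored -82.4, -56.8, 51.7 and -43.9 in SSCs, against -49.4, -19.1, 56.0 and 16.9 in BCSPs (unadjusted p = 0.00266 between experiments, adjusted p = 0.0711). Both arrays of experiment 3 were high. Cysltr2, the second receptor for cysteinyl leukotrienes, scored -22.2, -32.4, -73.3 and -22.7 in SSCs, against -46.6, -34.6, -84.7 and -27.7 in BCSPs (unadjusted p = 0.0215, adjusted p = 0.141), and both arrays of experiment 3 were low. Pla2g15 scored -32.9, -32.1, -75.7 and -58.1 in SSCs, against -35.7, -28.4, -72.4 and -69.3 in BCSPs (unadjusted p = 0.0224, adjusted p = 0.143), lower on all arrays of experiments 3 and 4. Pla2g4a was lowest in both populations in experiment 1 (unadjusted p = 0.028, adjusted p = 0.156).

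Technical values moved with the experiments too. The median score of the hybridization controls, which are spiked in and not made by the cells, was 62.5, -24.2, 32.4 and -8.12 on the SSC arrays of experiments 1 to 4, against 70.9, -13.4, 41.8 and 3.77 on the BCSP arrays. The gap between the 3′ and 5′ control probe sets of actin, taken as 3′ minus 5′, ran from 23.1 to 59.6 points on the SSC arrays and from 25.7 to 64.9 points on the BCSP arrays, highest in experiment 3 in both. Each control probe set is scored within its own range, so such a gap is not a ratio of 3′ to 5′ signal. The same gap for Gapdh was 21.3, 25.9, 54.7 and 53.9 points on the SSC arrays of experiments 1 to 4, against 21.6, 44.2, 49.1 and 71.9 points on the BCSP arrays. The Gapdh gap was thus clearly larger on the BCSP arrays of experiments 2 and 4. The actin gap was also larger on the BCSP array of experiment 4, at 44.2 points against 23.1 in SSCs. In experiment 2 it was 25.7 points in BCSPs against 26.8 in SSCs. The part of these technical values in the differences between experiments, between populations and between probe sets of a gene was not tested.

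**Figure D5:**
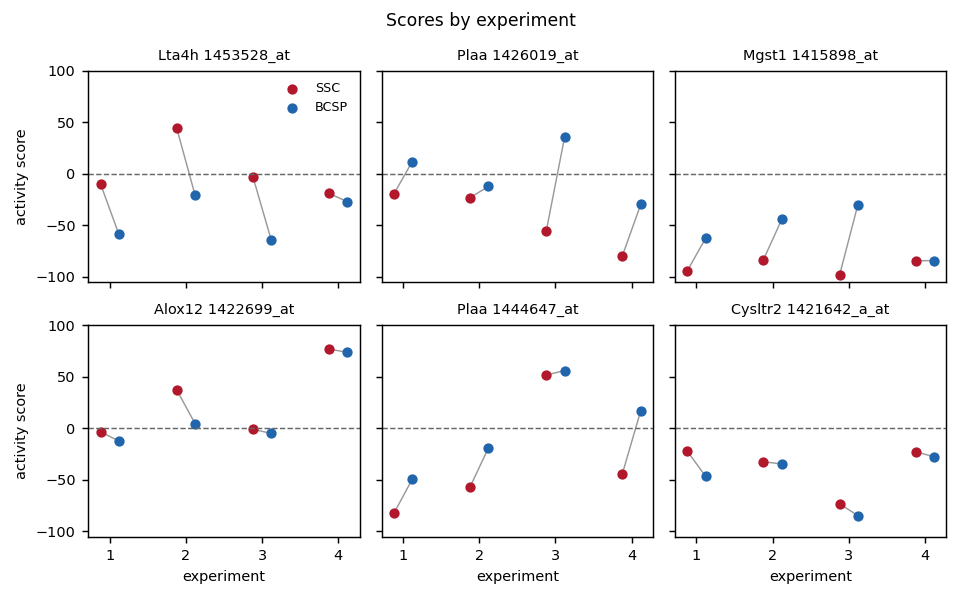
Activity score (y axis) in experiments 1 to 4 (x axis) of 6 probe sets, with SSC (red) left of BCSP (blue) and a line joining the 2 arrays of an experiment. Lta4h lies higher and Plaa and Mgst1 lower in SSCs in all 4 experiments in the upper row, and in the lower row Alox12 is high in experiment 4, Plaa high in experiment 3 and Cysltr2 low in experiment 3 in both populations.

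Of the neighbouring lists, 0 genes passed an adjusted p of 0.05 between the populations. At an unadjusted p under 0.05, each gene taken at its highest probe set, there were 2 of 22 P450 genes, 1 of 9 partners of phospholipase A2 and 1 of 9 genes of the cyclooxygenase route, and 0 in the other 3 lists, against 2.2% of all 18193 named genes. Pla2r1, a receptor that binds secreted phospholipases A2, scored -37.2, -2.54, -61.2 and -22.6 in SSCs, against -63.4, -80.6, -86.6 and -45.5 in BCSPs, a difference of 38.1 points (SE 14.7, limma unadjusted p = 0.0282, adjusted p = 1). Its other probe set ran the same way, by 21.4 points (95% confidence interval -2.96 to 45.8). Cyp2u1, a fatty acid hydroxylase, scored -27.1, -58.5, -25.9 and -25.2 in SSCs, against -78.2, -66.4, -87.6 and -41.6 in BCSPs, a difference of 34.3 points (SE 12.9, limma unadjusted p = 0.0253, adjusted p = 1).

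Both genes scored below 0 on all 8 arrays, with SSCs higher in 4 of 4 experiments. Cyp4a12a was lower in SSCs without overlap, at -92.8 to -89.8 in SSCs and -87.3 to -60.5 in BCSPs (limma unadjusted p = 0.0274, adjusted p = 1). Hpgds, a synthase of prostaglandin D2, scored between -88.8 and -23.5 in SSCs and between -98.9 and -86.0 in BCSPs, a difference of 29.4 points (limma unadjusted p = 0.0442, adjusted p = 1).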

How the data were processed

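RNA of 4 SSC and 4 BCSP samples was amplified, hybridized to Affymetrix arrays and normalized by the authors with Gene Expression Commons, a platform that uses public arrays as its Common Reference. The deposited values are an activity score per probe set, from -100.03 to 100, with a StepMiner threshold at 0. For probe summarisation no method was given in the sources used here. The table held 45101 probe sets, of which 64 controls were left out. Of the others, those with 1 symbol in the platform annotation were named, 932 had several, and 9211 were not listed and stayed unnamed.

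The population comparison used limma 3.58.1 (R 4.3.3) with lmFit and a trended eBayes on the score over all 45037 probe sets, with p-values adjusted by Benjamini-Hochberg at 0.05, and experiments with a moderated F test. The fits were tried on simulated scores with known differences added. The simulated noise left out the variation between experiments, so it does not measure how often real differences would be found here. After subtraction of group means, the 2 arrays of an experiment correlated at 0.394, 0.164, 0.605 and 0.173 in experiments 1 to 4, so the numbers, which the labels give as experiments, were taken to pair the arrays. For experiment 2 the title and description of the BCSP array differ in number, and the description was used. Array number limits the precision.

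Values on every array are given for probe sets above 0 on all 8 arrays, without overlap, among the 5 smallest p between populations or between experiments, and for Pla2g4a, Alox5, Alox5ap, Lta4h, Ltc4s, Ephx1, Ephx2, Fpr2, Cysltr1 and Ltb4r1. Members, roles, pathway and marker lists were chosen with earlier results of these data known. Other marker lists gave these counts of genes active on all 8 arrays: lymphocyte 1 of 7 (Cd8a), endothelial 0 of 8, erythroid 0 of 4, osteoclast 1 of 7 (Ctsk) and keratinocyte 0 of 6. Cd8a was active at only 1 of its probe sets, and the others were below 0 on all 8 arrays. Alternatives were the block, other scalings, filters, tests and probe set rules, and leaving out arrays.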

Additional observations from a re-analysis of the deposited data

Results flagged for a closer look

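In 3 of the 44 groups of 4 arrays that were examined, 1 array lay apart from the other 3 by Dixon's criterion, which flags about 1 in 20 groups by chance. Pla2g4a scored 89.39 on the SSC array of experiment 1, against 94.66 to 95.68 on the other SSC arrays. The lower probe set of Cysltr1 scored -71.21 on the same array, against -95.54 to -92.08 on the others. Ephx2 scored -57.69 on the SSC array of experiment 3, against -49.45 to -48.49 on the others.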

How the results depend on the processing

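No probe set of these genes passed the adjusted threshold between the populations under any of 27 alternatives, or between experiments under any of 9, of which quantile normalization was chosen after seeing the data. The median difference kept its sign under all 20 alternatives, from 0.0242 to 2.50 points. The 3 probe sets with an unadjusted p under 0.05 became 5 with the replicate block, which paired the arrays, 0 when only probe sets with a mean above the silent reference were tested, 1 with 1 probe set a gene and 0 with the mean over a gene's probe sets. They became 0 to 4 when arrays were left out, 0 without experiment 3 and 1 without experiment 1, and with the block also 1 without experiment 2 or 3. The mean over probe sets left 1 gene above 0 on all 8 arrays in place of 3, and quantile normalization, median centring or a threshold of 50 left 2 probe sets. The 1 probe set without overlap became 1 to 5 when 1 array was left out, where fewer arrays make separation easier. The count was 3 without SSC 1, SSC 2 or BCSP 1, 4 without SSC 3, 2 without BCSP 2 or BCSP 3 and 5 without BCSP 4. The share over all probe sets was not counted with an array left out, so these counts have no background beside them.

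The small differences at the highest probe sets changed sign. For Lta4h the difference of -0.795 points became 0.0753 with quantile normalization and 0.00448 on an inverse normal scale (which is not in points), and ranged from -2.25 to 0.63 when arrays were left out. For Pla2g4a it ranged from -1.06 to 2.33 and for Plaa from -6.05 to 19.0 when arrays were left out, with -5.01 without experiment 1, with or without the block. The other 5 named differences kept their signs, with the cause of all these changes not tested. The bounded score and 4 arrays a population limit what could be seen.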
